A study of Mus musculus with 6 samples.

Results

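Stretches of open chromatin that lie deep inside protein-coding genes and were found in every library of splenic immature B cells are described here. A stretch of bases covered by the merged ATAC-seq peaks of 6 libraries is called a region here. Members were the regions that overlapped a peak in all 6 lists, were 400 to 2000 bp wide, had their midpoint inside a protein-coding gene, and lay over 20 kb from either end of every protein-coding gene. They numbered 4826 of 70174 regions, or 6.88%. Of the 70174, 30954 were called in all 6 lists, 29326 of these had the stated width and 17530 of those lay in a gene. Members were chosen by measured peaks, so their presence, width and place are descriptions and were not tested. "Called in all 6" speaks of these sorted cells only, since no other cell type was analysed here.

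ATAC-seq marks open DNA by letting the Tn5 transposase insert adapters into it. Immature B cells, sorted as B220+CD93+, came from spleens of Tcrd-GDL mice, a strain whose γδ T cells carry a reporter and the diphtheria toxin receptor; both groups share this genotype. The 3 untreated libraries came from mice without injections. The 3 DTx libraries came from mice given diphtheria toxin intraperitoneally at 15 ng/g in 2 injections 48 h apart, with analysis on day 8. The labels state no age for either group. The labels do not say that libraries of a group came from separate mice, so the spread between them may be technical. Toxin and injection come together, as the untreated mice received neither. The sort was checked by peaks within 1 kb of a gene end: Cd79a, Cd79b, Ms4a1, Cd22, Pax5, Cd93 and Ptprc had one in 6 of 6 libraries. Among markers of other cells, Cd3e, Cd8a, Bcl11b, Lyz2, Adgre1, S100a8, Gata1, Hba-a1 and Hbb-bs had one in 0 libraries, Cd3g in 1, Cd4 and Csf1r in 4, Itgam, Cd14 and Epor in 5 and Klf1 in 6. Lists held 36760 to 60811 peaks, and the read depth behind them is unknown. Untreated replicate 3 and DTx replicate 1 have a list with a summit column and the other 4 have none, so each group holds both layouts.

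Far from gene ends, open chromatin in a gene body most often marks enhancers, short stretches bound by transcription factors that raise transcription of a promoter at a distance, or promoters of shorter transcripts that begin inside the gene. Immature B cells in the spleen are recent arrivals from the bone marrow that still test their antigen receptor, and factors such as EBF1, PAX5, FOXP1, MEF2C and BACH2 shape their programme. Many long genes of B cells carry several such elements in their introns. Exons and introns could not be told apart with the gene table used here.

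The bases under most members could not be read, because the reference tables hold sequence only around annotated transcript starts. RefSeq start windows, which run from 250 bases before a start to 50 after it on GRCm38.p6, overlapped 240 members (4.97%). Windows of 8 such members are shown, because 3 of the 12 strongest members cover a start of their own gene and 5 others cover one in a B lineage transcription factor or B cell receptor signalling gene at the 80th percentile or above in every list. The 250 bases before the start are printed 5′ to 3′ on the gene's strand. Capitals mark any match, on either strand, to 12 motifs of B lineage and general factors or to 2 promoter motifs, the CCAAT box (CCAAT) and the GC box (GGGCGG), added after the windows were seen. They lie at chr3:129725087-129725336 (minus strand) for Egf, chr7:113207215-113207464 (plus) for Arntl, chr17:7169865-7170114 (plus) for Rps6ka2, chr17:75465288-75465537 (plus) for Rasgrp3, chr1:165934949-165935198 (minus) for Pou2f1, chr1:80665353-80665602 (minus) for Dock10, chr14:79515424-79515673 (plus) for Elf1 and chr13:41359002-41359251 (minus) for Nedd9.
Egf: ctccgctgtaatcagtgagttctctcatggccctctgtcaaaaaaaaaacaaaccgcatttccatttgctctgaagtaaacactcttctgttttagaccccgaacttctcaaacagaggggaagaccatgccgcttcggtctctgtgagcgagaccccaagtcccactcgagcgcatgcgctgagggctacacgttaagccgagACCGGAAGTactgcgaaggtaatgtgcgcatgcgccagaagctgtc
Arntl: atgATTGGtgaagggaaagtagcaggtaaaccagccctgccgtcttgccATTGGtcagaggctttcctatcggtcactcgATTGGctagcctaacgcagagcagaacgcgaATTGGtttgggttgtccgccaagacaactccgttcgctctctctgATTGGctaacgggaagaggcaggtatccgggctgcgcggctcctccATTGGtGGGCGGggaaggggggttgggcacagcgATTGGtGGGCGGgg
Rps6ka2: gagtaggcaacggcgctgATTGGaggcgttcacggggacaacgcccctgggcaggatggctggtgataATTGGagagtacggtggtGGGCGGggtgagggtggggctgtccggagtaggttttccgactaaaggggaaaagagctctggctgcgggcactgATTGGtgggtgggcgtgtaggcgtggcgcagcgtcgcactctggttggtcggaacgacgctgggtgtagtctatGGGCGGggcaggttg
Rasgrp3: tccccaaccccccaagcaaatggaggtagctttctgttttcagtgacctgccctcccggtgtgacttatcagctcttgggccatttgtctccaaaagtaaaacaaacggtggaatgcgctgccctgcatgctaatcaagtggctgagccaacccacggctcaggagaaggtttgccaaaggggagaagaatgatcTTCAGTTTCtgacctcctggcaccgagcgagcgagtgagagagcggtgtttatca
Pou2f1: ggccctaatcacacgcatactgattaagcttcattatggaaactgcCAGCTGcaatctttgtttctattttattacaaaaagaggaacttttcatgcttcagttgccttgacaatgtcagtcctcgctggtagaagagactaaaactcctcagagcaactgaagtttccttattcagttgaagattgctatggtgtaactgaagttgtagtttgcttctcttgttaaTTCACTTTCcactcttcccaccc
Dock10: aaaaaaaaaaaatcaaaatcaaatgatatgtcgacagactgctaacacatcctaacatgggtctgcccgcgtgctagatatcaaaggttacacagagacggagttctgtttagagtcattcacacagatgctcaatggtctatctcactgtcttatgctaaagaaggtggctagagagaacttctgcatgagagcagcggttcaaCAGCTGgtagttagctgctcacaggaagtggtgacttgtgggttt
Elf1: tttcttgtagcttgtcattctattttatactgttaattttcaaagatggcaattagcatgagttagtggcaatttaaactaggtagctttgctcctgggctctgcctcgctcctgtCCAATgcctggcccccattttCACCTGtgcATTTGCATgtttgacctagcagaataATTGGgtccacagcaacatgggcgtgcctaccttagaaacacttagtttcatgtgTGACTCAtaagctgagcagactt
Nedd9: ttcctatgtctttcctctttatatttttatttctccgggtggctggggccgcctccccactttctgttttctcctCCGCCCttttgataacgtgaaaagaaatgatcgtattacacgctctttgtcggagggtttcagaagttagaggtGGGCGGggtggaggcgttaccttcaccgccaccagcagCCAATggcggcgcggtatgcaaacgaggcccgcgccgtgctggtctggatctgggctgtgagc

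The 8 windows differed in base composition. Those of Egf (epidermal growth factor), Arntl (the clock factor BMAL1) and Rps6ka2 (a ribosomal S6 kinase) held 15, 16 and 19 CG dinucleotides and a GC content of 52%, 58.8% and 63.2%, and that of Nedd9 (a scaffold protein of adhesion signalling) held 17 and 54.8%. Rasgrp3 (a Ras exchange factor) had 8 CG dinucleotides at 52.8% GC. The windows of Pou2f1 (the octamer-binding factor OCT1), Dock10 (a Cdc42 exchange factor) and Elf1 (an ETS factor) held 2, 5 and 2 at 40%, 43.2% and 43.2%. Arntl's window held the CCAAT box 7 times and the GC box 2 times, Rps6ka2's held them 3 and 2 times and Nedd9's 1 and 2 times. Egf's held an ETS core (ACCGGAAGT). Pou2f1's window held an E-box (CAGCTG) and an IRF-type match (GAAANNGAA), Dock10's held the same E-box and Rasgrp3's an IRF-type match. Elf1's held an E-box (CAGGTG), the octamer (ATTTGCAT), an AP-1 match (TGANTCA) and 2 CCAAT boxes. A match is a run of letters and does not show binding.

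Across all 281 start windows under a member, the sequence was richer in CG than at the closed starts of the same stretches. Their median GC content was 56.3%, against 47.3% in 1789 windows with a start in the same kind of stretch but under no region of any library, and 52.7% in all 32851 windows. At least 10 CG dinucleotides were found in 55.9%, 11.6% and 43.5% of windows of these sets. The GC box was in 49.5%, 11.6% and 35.7%, and the CCAAT box in 28.8%, 35.5% and 37.4%. The EBF1 motif (CCCNNGGGA), read on both strands, was in 27 of the 281 windows (9.61%), against 5.03% and 6.56%. The ETS core was in 4 of the 281 (1.42%), against 0.224% and 1.10%. The IRF-type match was in 4.98%, against 8.05% and 8.56%, and RUNX (TGTGGTT) in 4.63%, against 6.15% and 5.27%. A PU.1-type ETS motif (GAGGAAGT) was in 2.49%, against 2.63% and 3.20%, and the octamer in 1.42%, against 2.35% and 1.74%. The 2 E-boxes CAGCTG and CAGGTG were in 21.4% and 22.1% of windows under members and in 18.4% and 21.2% of the closed ones. AP-1 was in 7.83% against 9.06% of the closed windows, and the CTCF motif in 1.07% against 0.224%. NF-κB (GGANTTTCC) and MEF2 matches were in 1 window each under members. GC-rich windows hold GC-rich letters more often, and the part of base composition in these shares was not tested.

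Members were narrow and spread over long genes. Their median width was 809 bp, with 641 and 1076 bp as quartiles, and 4455 of them (92.3%) held a single peak in every list. The median distance to the nearest gene end was 45.8 kb and the longest 732 kb. Over 50 kb lay 2187 members (45.3%), over 100 kb 837 (17.3%) and over 200 kb 197 (4.08%). The nearest other member was a median of 13.9 kb away, and 1920 members (39.8%) had another within 10 kb. In the 2 lists that give a summit, untreated replicate 3 and DTx replicate 1, the summits under a member lay a median of 17 bp apart and 78.6% were within 50 bp. The same figures were 15 bp and 77.5% for the 8961 regions within 1 kb of a gene end that were called in all 6 lists with the same width, called gene-end regions below.

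Stretches that lie in a gene and over 20 kb from every end, called eligible below, covered 583 Mb. Members occurred there at 8.28 per Mb, against 15.4 per Mb for like regions in genes at 1 to 20 kb from an end and 113 per Mb within 1 kb of an end. Of all 8663 regions of that place and width called in any library, 55.7% were called in all 6 and 3.76% in 1. Over all regions, of any place and without the width limit, these shares were 44.1% and 18.2%. The part of the width limit in this difference was not tested. The density was highest on chromosome 19 (11.5 per Mb) and chromosome 13 (11.3) and lowest on chromosome X (3.57, 96 members), and chromosome Y had 0.309 Mb of eligible stretch and 0 members. Along 1483 host genes with a known strand, members were densest before the middle and least dense at both ends. Cut into 10 equal stretches from the 5′ end, those numbered 1 to 5 held 4.86, 7.87, 9.60, 10.2 and 10.1 members per Mb of eligible bases. Those numbered 6 to 10 held 8.99, 7.82, 7.42, 6.81 and 5.13. With 20 kb cut at each end, the outermost stretches hold eligible bases only in longer hosts, 17.1 Mb each against 61.8 Mb for stretch 5. Over all hosts, those with over 200 kb of eligible stretch held 1.04 members per 100 kb and those with 20 to 50 kb held 4.43. A host holds at least 1 member by definition, which by itself gives short hosts a high density. Over all eligible genes, with or without a member, the density was 13.4 per Mb with at most 50 kb of eligible stretch. It was 6.84 per Mb from 200 to 600 kb and 2.03 per Mb above 600 kb. The part of host length in the profile along the gene was not tested. Before the gene's middle the density was 9.25 per Mb and after it 7.67. The share of members before the gene's middle was 54.7%, where 50.1% of eligible bases lay.

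Open chromatin deep in genes was concentrated in a minority of hosts. Of 5858 genes with an eligible stretch, 1878 (32.1%) held a member, 884 of them 1 and 387 of them 2. At the other end, 269 genes held 5 or more and together 42.0% of the members, and 54 genes held 10 or more and 14.0%. Only 22 members lay in 2 genes at once. A gene end is called open in a library with a peak within 1 kb of it and closed otherwise. Host genes more often had an open gene end: 65.5% of the 1878 had one with a peak in every library, against 49.2% of the 3980 eligible genes without a member. Among genes with over 200 kb of eligible stretch these shares were 52.0% of 367 and 13.5% of 363. Read the other way, genes whose end was open in every library held 14.5 members per Mb, those with one in 1 to 5 libraries 8.38 and those with none 3.39. The hosts of 10 or more members had a median length of 350 kb and those of 1 member 95.8 kb. A gene end here is the outermost end in a gene table that includes predicted transcripts for 83.6% of hosts, and a closed outer end does not mean a closed promoter.

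Foxp1, a forkhead transcription factor needed for early B cell development, held the most members, 36. They lay over 505 kb of its 597 kb (chr6:98925342-99522746, minus strand), at a median gap of 12.4 kb and at 6.46 per 100 kb of eligible stretch, where all eligible genes had 0.828. Strength is given below as the percentile of a peak's −log10 q, the authors' own value for each peak, within its list; q is the peak caller's adjusted p. The median of the 36 members was at percentile 48.9, 65.6 and 66.1 in untreated replicates 1, 2 and 3 and at 59.9, 70.0 and 73.3 in DTx replicates 1, 2 and 3. The libraries of the groups thus overlapped. By their lowest percentile over the 6 lists, members ranged from 0.775 to 86.1, and 16 of the 36 stayed at 50 or above in every list. The strongest 5 all lay in the 3′ part of the gene, 465 to 528 kb from the 5′ end, at percentile 84.3 or above in every list. Of the 36, 2 covered an annotated start, at 256 and 317 kb, with lowest percentiles of 44.3 and 33.2. In the gene's 3 equal stretches from the 5′ end there were 10, 16 and 10 members with median lowest percentiles of 29.1, 51.0 and 71.0. Under every one of the 16 other settings for choosing members Foxp1 remained the leading host, with 16 to 42 members.

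**Figure D1:**
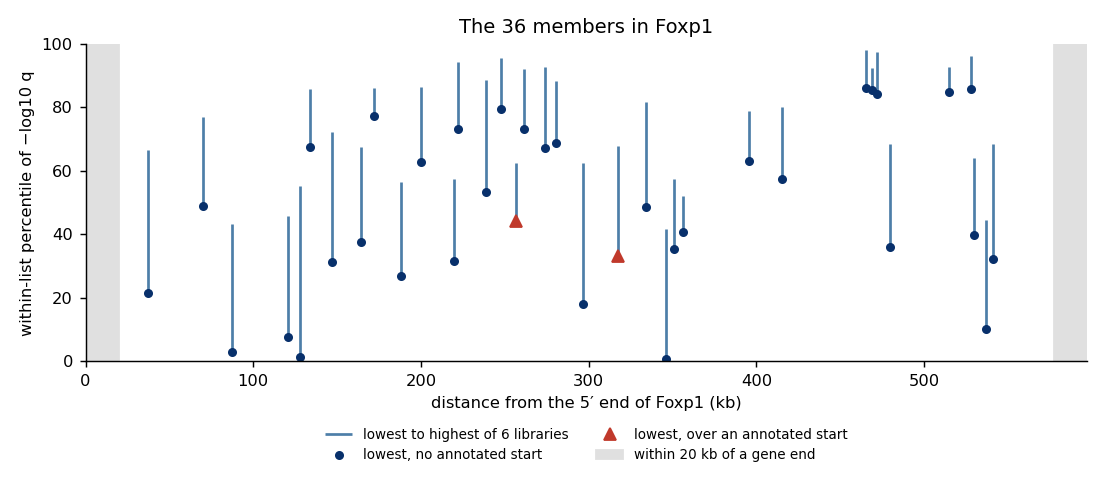
Each of the 36 members in Foxp1 by the distance of its midpoint from the gene's 5′ end in kb (x axis) and the within-list percentile of −log10 q (y axis): the line runs from the lowest to the highest of the 6 libraries, the point is the lowest, triangles mark members over an annotated start and grey marks the excluded 20 kb at each end. The 5 members with the highest lowest percentile sit between 465 and 528 kb.

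After Foxp1 came Lpp, a focal adhesion LIM protein, with 22 members over 547 kb, and Prkce, protein kinase C epsilon, with 20. Akap13, an A-kinase anchor protein gene, held 19 in 259 kb of eligible stretch, or 7.33 per 100 kb, the highest density of the 15 leading hosts. Pde4d, a cAMP phosphodiesterase, held 17 and Wwox, a WW domain oxidoreductase, 15, in eligible stretches of 1262 and 873 kb, so that their densities were 1.35 and 1.72 per 100 kb. Then came 6 genes with 14 members each: Sgms1 (sphingomyelin synthase), Ldlrad4 (a brake on TGF-β signalling), Gse1, Snx29 (a sorting nexin), Nav2 (neuron navigator) and Hdac9 (a class IIa histone deacetylase). Filip1l and Cmss1 overlap on opposite strands of chromosome 16 and share the same 13 members, and Xylt1, a xylosyltransferase of proteoglycan synthesis, held 13. The strength of the members differed between these hosts. Xylt1's members had a median percentile between 61.3 and 81.0 over the 6 libraries, whereas those of Ldlrad4 stood between 32.5 and 50.5 and those of Nav2 between 20.6 and 46.2. Foxp1, Lpp, Prkce, Akap13, Wwox, Ldlrad4, Snx29, Cmss1 and Xylt1 had an open gene end in 6 of 6 libraries and Sgms1 in 5.

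**Figure D2:**
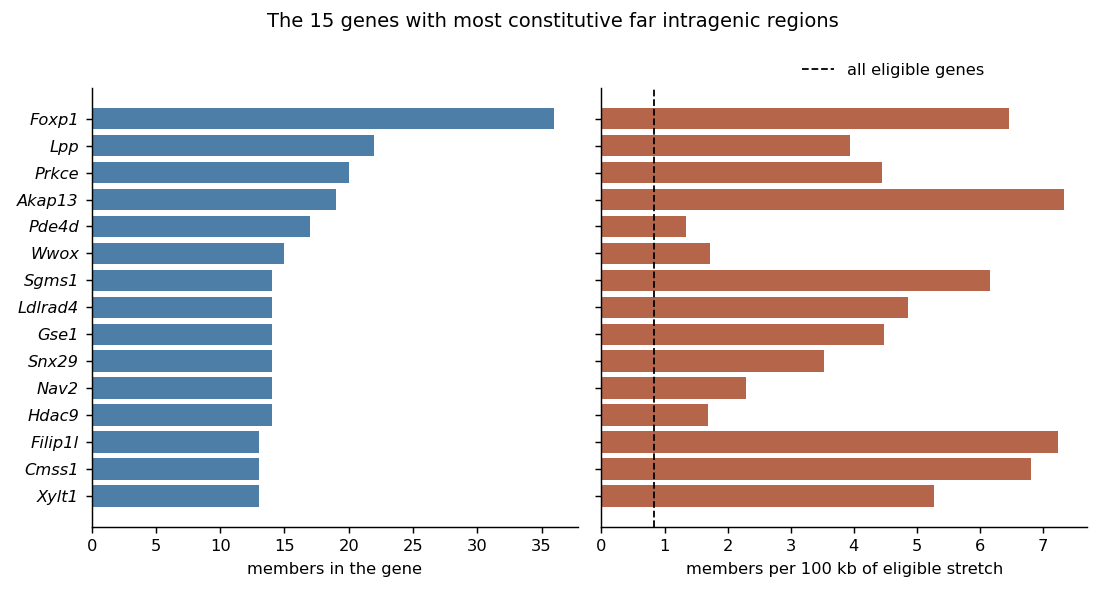
The 15 genes with most members: the number of members (left, bars from 0) and members per 100 kb of eligible stretch (right), with the value over all eligible genes as a dashed line at 0.828. All 15, which were chosen by their count, lie above that line, and Akap13 and Filip1l have the highest densities of the 15, at 7.33 and 7.24.

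Of the 54 genes with 10 or more members, 12 (22.2%) had a closed gene end in every library. That share was close to the 22.6% of all hosts, and it was 34.4% of all eligible genes. The 12 were Pde4d, Gse1, Hdac9, Nav2, Filip1l, Tenm4, Celf2, Cacna1d, Celf4, Chrm3, Hivep2 and Fbxl17. Those outside the 15 leading hosts were named after their values were seen. For 7 of the 12 an annotated start of the gene lay under a region called in all 6 libraries, for 4 (Pde4d, Tenm4, Cacna1d and Chrm3) it did not, and Celf4 had no start window in the table. The calcium channel gene Cacna1d and the muscarinic receptor gene Chrm3, which are known from excitable cells and smooth muscle, held 11 each. Hivep2, a zinc finger factor, was the densest of the 12 at 7.34 per 100 kb and Pde4d the least dense.

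The 12 strongest members, taken by their lowest percentile over the 6 lists, lay in 11 genes. The first was in Mef2c, a MADS-box factor that acts downstream of the B cell receptor (chr13:83571835-83572739). It stood at percentile 99.5, 99.5 and 99.6 in untreated replicates 1, 2 and 3 and 99.7, 99.5 and 99.7 in DTx replicates 1, 2 and 3. Another Mef2c member (chr13:83608309-83609794) stood at 99.5, 99.0 and 99.5 untreated and 99.9, 99.6 and 99.5 DTx. Mef2c had 6 members in 123 kb and no peak within 1 kb of its outer ends in any library. The Sipa1l1 member (a Rap GTPase activator; chr12:82225595-82226462) stood between 99.5 and 99.8 in the 6 lists, and that of Ski (a SMAD corepressor; chr4:155200663-155201659) between 99.5 and 99.9. The member over the Egf start (chr3:129724983-129725718) stood between 99.3 and 99.7, and that of Inpp5d, the inhibitory phosphatase SHIP1 (chr1:87650525-87651329), between 99.2 and 99.9. All of these were among the strongest 1% of peaks in every list. They were chosen by their lowest percentile over the 6 lists, so this and the closeness of the libraries follow from the choice.

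The other 6 of the 12 strongest were in Arntl, Prkce, Arhgap24 (a GTPase activator), Xylt1, Rps6ka2 and Uggt2 (a glucosyltransferase of the endoplasmic reticulum), with lowest percentiles from 98.4 to 99.0. The Arhgap24 member (chr5:102497024-102497770) lay 290 kb from the nearest gene end and the Prkce member (chr17:86336750-86337766) 169 kb. On the scale of fold enrichment over local background, again the authors' value, the Mef2c member first named had 7.11, 7.64 and 16.3 untreated and 14.2, 7.47 and 7.86 DTx. The higher values are those of the 2 lists with a summit column, so folds are not comparable between layouts. Over all members, 159 (3.29%) stood at percentile 90 or above in every list, 1967 (40.8%) at 50 or above, and 461 (9.55%) fell below 10 in at least 1 list. A member's highest and lowest percentile differed by a median of 24.2 points.

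At the limits of the choice, the nearest regions on either side were as follows. The member nearest to the 20 kb limit was in Eif2ak3, at 20007 bp and percentile 22.6 to 52.9, and the nearest region outside it was in Ube2l3, at 19995 bp and 46.1 to 77.9. At 400 bp the member in Mbnl2 stood at 46.6 to 67.2 and the 399 bp region in Pgap1 at 44.8 to 71.9. At 2000 bp the member in Mrvi1 stood at 66.3 to 84.8, and the 2004 bp region in Reep3 at 16.2 to 39.6.

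Groups of host genes were read as members per Mb of their eligible stretches, beside 8.28 over all eligible genes. Of all eligible genes, 32.1% held a member, as did 47.7% of those with 50 to 200 kb of eligible stretch. Among genes of that length with a gene-end peak in every library, 60.1% did. The median lengths of the B lineage and receptor signalling lists below lie in that range. Of 32 eligible B lineage transcription factor genes, 29 held a member, 189 in all, or 35.7 per Mb, and 28 of the 32 were denser than all eligible genes together. In a short eligible stretch a single member suffices for this, so that count moves with length. Foxp1 held 36, Ebf1 and Tcf4 13 each and Bach2 12; EBF1 and the E protein TCF4 drive early B cell genes and BACH2 restrains plasma cell fate. Ebf1's strongest member (chr11:44950367-44950978) stood at percentile 96.4 or above in every list. Pax5, the B cell identity factor, held 6 and Ikzf1 (Ikaros) 5. The 3 without a member were Runx3, Foxo1 and Nfatc3, with 17.3, 41.8 and 31.5 kb of eligible stretch.

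Of 44 B cell receptor signalling genes, 36 held a member, 170 in all, or 32.8 per Mb. Elmo1, which activates Rac with DOCK proteins, held 12, the guanine nucleotide exchange factor gene Arhgef3 11, and Ptk2b (the kinase PYK2) and Dock10 10 each. Ptk2b was the densest of these at 11.4 per 100 kb. The kinase genes Syk and Lyn, at the top of the receptor's signal, held 3 and 4. Dock2, the Rac exchange factor of lymphocytes, held 0 in 437 kb although its gene end was called in 6 of 6 libraries; it was picked after its value was seen.

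Among 21 cytokine receptor, TNF receptor and survival genes, 12 held a member, 41 in all, or 40.7 per Mb. Bcl2, the survival factor, held 10, Map3k5 8, and Smad3 and Jak1, the TGF-β and cytokine signal transducers, 4 each. Of 49 chromatin and transcription regulators 32 held a member (23.4 per Mb), led by Hdac9 with 14, Arid1b of the BAF complex with 13, Rere with 12 and the remodeller Chd7 with 7. Of 29 adhesion and cytoskeleton genes 24 did (15.4 per Mb), led by Arhgap24 with 8, Sipa1l1 with 6, and Iqgap1 and Arhgap6 with 5.

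Genes of other blood cells lay nearer to the value over all genes. Of 18 T cell genes 13 held a member (12.4 per Mb), with 11 in the lipid phosphatase gene Inpp4b, 5 in the adaptor gene Grap2 and 3 each in Stat4 and Tox; Tox held 1 at percentile 97.9 or above in every list. Of 15 myeloid and dendritic cell genes 7 did (10.4 per Mb), with 6 in the scavenger receptor gene Cd36, 4 in Mrc1 and 3 each in Slc8a1 and Dock4. Of 9 erythroid, megakaryocyte and mast cell genes 5 did (11.6 per Mb), with 5 in Fli1, 3 in the integrin gene Itgb3, 2 in Vwf and 1 in Zfpm1. Fli1 and Stat4 are in 2 lists each, and B cells also use Fli1. Bcl11b and Adgre1, markers of T cells and macrophages, held 0. The part of other blood cells in these counts was not tested.

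Stromal, endothelial and neuronal genes held few members per Mb. Of 24 stromal and endothelial genes 7 held a member (3.46 per Mb), a share of 29.2% beside 32.1% of all eligible genes. Prkg1 held 7, Zeb1 5, the laminin gene Lamc1 3 and Rbms3 2. Of 40 long neuronal genes 10 (25%) held a member, beside 42.3% of all eligible genes with over 600 kb of eligible stretch. The 40 held 27 members in 49.0 Mb or 0.551 per Mb, and 0 of the 40 were denser than all eligible genes together. Being denser takes several members in stretches of this length. Sox5 and Magi2 held 7 each and Ntm 2. The longest without a member were Ptprd, Cntnap2, Lsamp and Lrp1b, synaptic and neuronal surface proteins with 2230, 2201 and 2077 kb and, for Lrp1b, 2018 kb of eligible stretch, and the ends of these 4 were closed in all 6 libraries.

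The lists differ in length and in how often their gene ends were open, and both move with density. Over all eligible genes the density was 13.4 per Mb where the eligible stretch was at most 50 kb, 12.5 from 50 to 200 kb, 6.84 from 200 to 600 kb and 2.03 above 600 kb. Of the 40 neuronal genes 39 were above 600 kb and held 0.556 per Mb, beside that 2.03. The 4 stromal and endothelial genes above 600 kb held 2.62 per Mb, which is not below it. The medians of eligible length were 92.8 kb for B lineage factors, 77.1 kb for receptor signalling and 38.3 kb for cytokine and survival genes. Among genes whose end was open in every library the densities were 38.3, 34.6 and 38.3 per Mb for those 3 lists, beside 14.5 for all such genes. They were 26.4 for chromatin regulators, 13.7 for adhesion genes, 19.1 for 7 T cell genes, 8.45 for 5 myeloid genes, 31.1 for 3 erythroid genes, 36.7 for 2 stromal genes and 1.29 for 4 neuronal genes. Beside that 1.29, all genes with over 600 kb of eligible stretch and an end open in every library held 4.16 per Mb. The lists were written with earlier results on these libraries known, so their counts are descriptions.

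**Figure D3:**
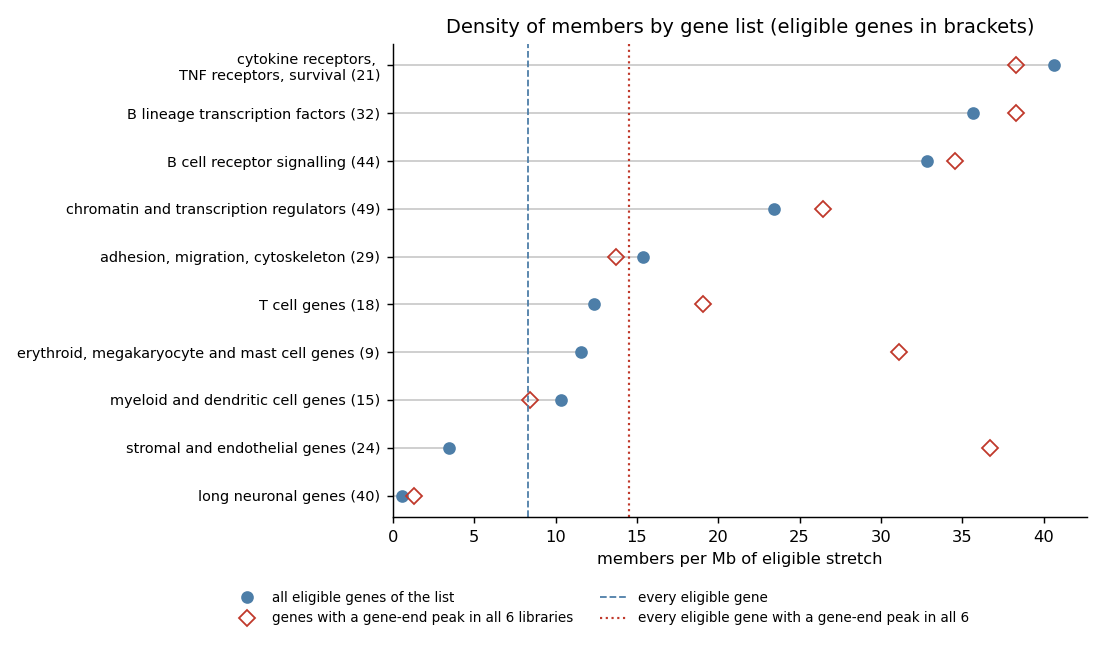
Members per Mb of eligible stretch (x axis) for 10 gene lists (y axis, eligible genes in brackets): circles are all eligible genes of a list, diamonds those whose gene end was open in every library, and the lines are the same values over every eligible gene, 8.28 dashed and 14.5 dotted. B lineage factor, receptor signalling and cytokine and survival genes lie above 30 per Mb on both measures and long neuronal genes below 2.

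Members were weaker than open chromatin at gene ends. The median percentile of the 4826 members was 47.5, 53.5 and 63.8 in untreated replicates 1, 2 and 3 and 56.4, 64.3 and 66.7 in DTx replicates 1, 2 and 3. That of the 8961 gene-end regions was 78.0, 80.2, 86.8, 81.2, 84.9 and 85.0 in the same order. The libraries did not overlap between the places. The mean difference was -24.0 ± 4.37 points (SD, n = 6, lower in 6 of 6 libraries; exact two-sided sign-flip permutation p = 0.03125, the smallest possible, and 0.0417 after Benjamini-Hochberg adjustment over 4 comparisons). Each library counted once, whatever its number of regions. Of the 4 comparisons, only that with gene-end regions was planned. Gene-end regions were wider, at a median of 1067 bp, and between 400 and 1000 bp of width the difference was -24.4 points. By fold enrichment it was -13.2 points, from -19.9 to -6.04 over the libraries (lower in 6 of 6, exact sign-flip permutation p = 0.03125).

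Inside genes the step was small. Like regions 1 to 20 kb from a gene end (6226 regions) had medians of 52.5, 59.0 and 69.1 untreated and 60.7, 68.7 and 71.2 DTx. Members lay 4.84 ± 0.493 points lower (SD, n = 6, in 6 of 6 libraries; exact sign-flip permutation p = 0.03125, adjusted 0.0417). By fold enrichment in place of −log10 q the difference was -0.732 points and was lower in 5 of 6 libraries (exact sign-flip permutation p = 0.1875), so this step rests on the measure. Between genes, 4813 regions over 20 kb from every gene end had medians of 48.4, 52.9 and 63.8 untreated and 56.9, 63.2 and 66.2 DTx. Members differed from them by 0.146 points, from -0.960 to 1.12 over the libraries (exact sign-flip permutation p = 0.594, adjusted 0.594), and by fold enrichment by -0.771 points in the other direction (lower in 6 of 6, permutation p = 0.03125). The median widths were 809 and 808 bp.

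**Figure D4:**
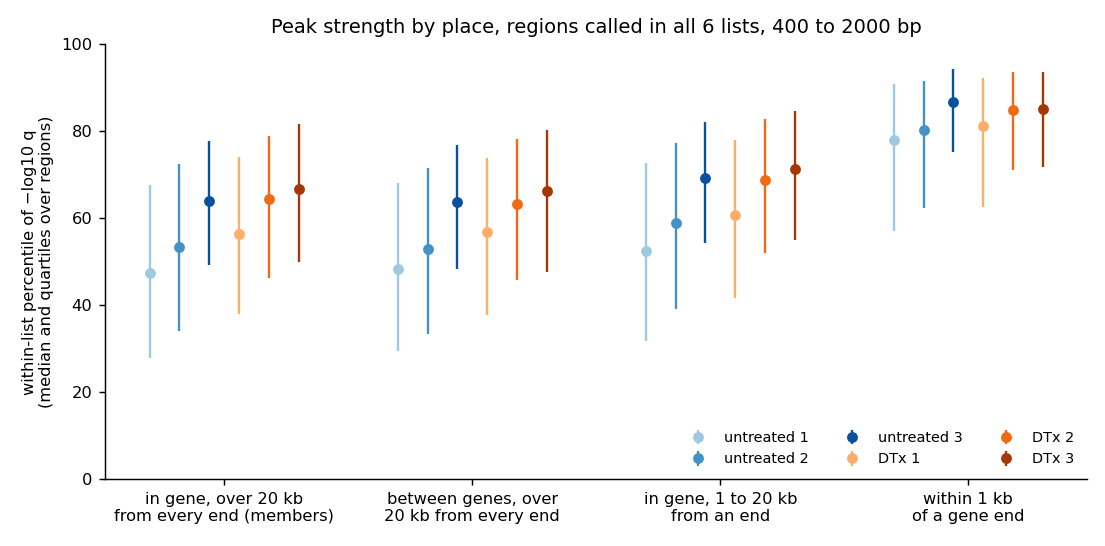
Median within-list percentile of −log10 q (points, y axis) with the quartiles over regions (lines) in each of the 6 libraries, for members and 3 other places (x axis), all called in all 6 lists and 400 to 2000 bp wide. Members sit between 47.5 and 66.7, close to the regions between genes, and gene-end regions between 78.0 and 86.8.

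By −log10 q, members over annotated internal starts were stronger, while by fold enrichment the libraries were divided. Of the 240 members over a start, 182 covered a start of their own host and 58 only starts of other genes. Of 936 starts of a host gene that lay in eligible stretches, 201 (21.5%) were under a member. In 5 equal groups of members from weakest to strongest by lowest percentile, 2.80%, 2.59%, 4.87%, 5.70% and 8.91% covered a start, as did 26 of the 159 at percentile 90 or above in every list (16.4%). Median percentiles of the 240 were 61.5, 64.9 and 75.3 untreated and 65.7, 74.3 and 75.8 DTx. They lay 11.5 ± 1.94 points above the 4586 others (SD, n = 6, higher in 6 of 6 libraries; exact sign-flip permutation p = 0.03125, adjusted 0.0417), a comparison added after leading members were seen to cover starts. The leading members had been picked by these same percentiles, so this p-value cannot be read as an independent test. By fold enrichment the difference was 1.83 points (permutation p = 0.281, higher in 4 of 6). The 240 were wider, at 1100 against 797 bp, and between 400 and 1000 bp the difference was 9.26 points. Regions between genes covered a start as often, 4.74%, and regions 1 to 20 kb from an end more often, 15.8%. Apart from transcript starts, 3 members covered a microRNA hairpin of RefSeq: Mir1904 in Pde4d, Mir6541 in Wdfy2 and Mir3086 in Hspa12a.

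The members' order by strength was shared between libraries. Over the 4826 members, Spearman's rank correlation between 2 libraries lay between 0.837 and 0.922 for the 15 pairs. Its median was 0.883 for the 6 pairs within a group and 0.900 for the 9 pairs across groups. These are descriptions over regions of 6 libraries, and regions of 1 library share its depth and list layout.

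Members were then compared between DTx and untreated mice, which asks whether they differ on day 8 after toxin given to remove γδ T cells. Lists differ in length, so each region was ranked by −log10 q among the 30954 called in all 6 lists. With limma, with the list layout as a term and Benjamini-Hochberg adjustment over all 30954, 0 regions were called (a background of 0%) and 0 members, at a lowest adjusted p of 0.966 among members. On simulated shifts this fit recovered 0 of 50 regions at 20 points, 15 of 50 at 40 and 80 of 100 at 60, with 1 false call each. It would thus miss most changes of 40 points or fewer. At an unadjusted limma p under 0.05 were 206 of 4826 members (4.27%), beside 4.15% of all regions. Ranks of all 3 DTx libraries lay above all 3 untreated ones for 270 members (5.59%), beside a background of 3.97%, and below for 155 (3.21%), beside 4.77%.

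The members' median rank was 38.6, 38.4 and 36.2 in untreated replicates 1, 2 and 3 and 39.5, 38.9 and 38.6 in DTx replicates 1, 2 and 3. Every DTx value lay above every untreated one, although the closest, of DTx replicate 3 and untreated replicate 1, both round to 38.6. The means were 37.7 ± 1.32 untreated and 39.0 ± 0.429 DTx (SD, n = 3 each), a difference of 1.25 points (exact two-sided permutation p = 0.1, the smallest that 3 against 3 allows). On the scale of the percentile within the whole list, where lists of unequal length are compared, the difference was 7.56 points (54.9 ± 8.28 untreated, 62.5 ± 5.37 DTx; SD, n = 3 each; exact permutation p = 0.2) and the groups overlapped. For the rank, in the lists without a summit column the difference was 0.255 points and in the 2 with it 3.25. By fold enrichment the medians of the groups overlapped (44.1, 46.2 and 44.1 untreated; 43.7, 47.5 and 49.0 DTx; exact permutation p = 0.4), and by pileup, the read coverage at the peak, they did as well (permutation p = 0.6).

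For the 12 strongest members, none past the test, the fitted DTx minus untreated difference lay between -0.933 points (Uggt2) and 0.326 points (Xylt1), with standard errors from 0.930 to 1.02. These 12 were chosen for a high percentile in all lists of both groups. Small differences follow from that choice and say nothing about the toxin. Among the 15 leading hosts the median difference over a gene's members ranged from -2.34 points (Hdac9) to 2.91 points (Foxp1). Foxp1's 36 members had median ranks of 40.2, 53.3 and 39.8 untreated and 43.8, 47.3 and 49.1 DTx, so the groups overlapped, and 3 of the 36 had an unadjusted limma p under 0.05. The member of lowest p was in Oxr1 (chr15:41612171-41612618), named after its value was seen. Its ranks were 20.7, 30.3 and 15.1 untreated and 51.7, 49.2 and 55.9 DTx, a fitted difference of 30.2 ± 6.98 points (SE; limma adjusted p = 0.966), which did not pass the test.

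**Figure D5:**
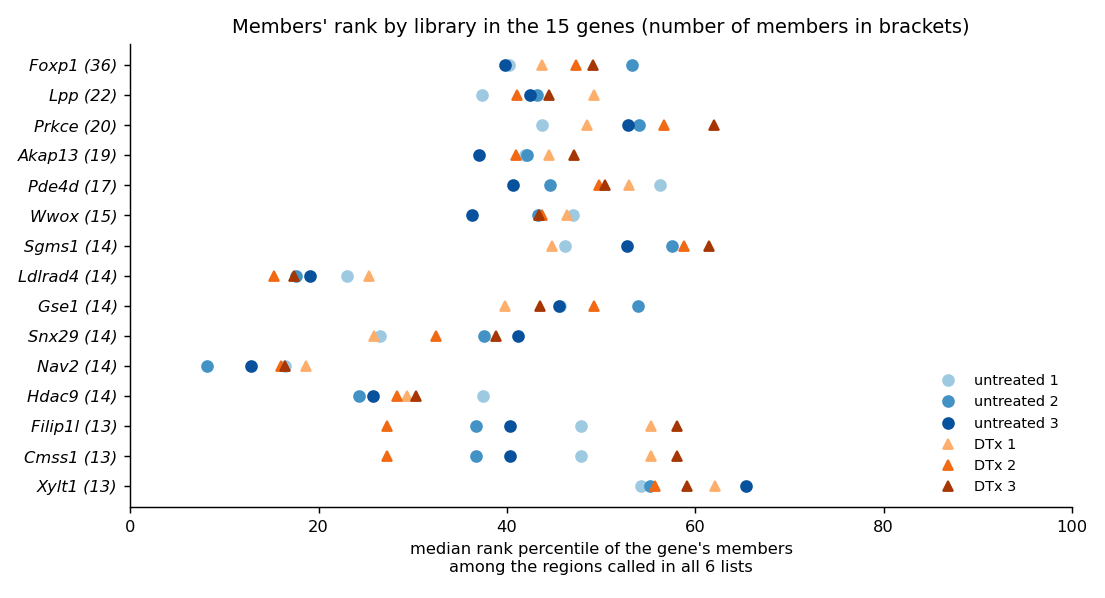
Median rank percentile of a gene's members among the regions called in all 6 lists (x axis) for the 15 leading hosts (y axis, members in brackets), with circles for the 3 untreated and triangles for the 3 DTx libraries. In Foxp1 the DTx libraries lie between the lowest and highest untreated ones. Nav2 lies between 8.19 and 18.6 in the 6 libraries and Xylt1 between 54.3 and 65.4.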

How the data were processed

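The authors deposited 1 peak list per library, called separately. Trim Galore 0.4.3, Bowtie2 2.3.2, MACS2 2.1.1 and mm10 are named in the submitters' processing notes. Each deposited peak has a pileup signal and a fold enrichment ratio, per the file headers, and a −log10 p and −log10 q, identified from column order and values because their headers are damaged.

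Overlapping peaks of the 19 autosomes, X and Y were merged, and 1 bp of overlap counted as a call. Genes (21887, protein-coding), start windows and hairpins came from RefSeq tables of GRCm38.p6, the build of mm10. All 370 list symbols matched. Strength was the percentile of a region's highest −log10 q within its list. Medians per library were compared by exact sign flips and groups by the 20 relabellings of 3 against 3. Ranks went into limma 3.58.1 (R 4.3.3; trend and robust options, threshold 0.05), tested on simulated data. Other steps used Python 3.11.15, NumPy 2.4.6, pandas 2.3.3, SciPy 1.17.1 and matplotlib 3.10.9.

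The members, gene lists and motifs were chosen with earlier results of these data known. Named by rule were the 15 genes with most members, the 12 members of highest lowest percentile (at most 2 a gene), up to 4 genes a list, the 4 longest neuronal genes without a member, and regions next to each limit. One B cell marker and 1 neuronal gene that the rules name are not reported here.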

Additional observations from a re-analysis of the deposited data

How the results depend on the processing

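The count of members rested on the distance, the threshold and the overlap rule. It was 2187 beyond 50 kb, 3004 when only peaks reaching a −log10 q of 5 were used, and 2793 where peaks had to cover at least 50% of the region in every library. Host genes numbered 3003 beyond 10 kb and 759 beyond 50 kb. Foxp1 held 19 members at 400 to 1000 bp and 16 under that coverage rule. Leaving out each library gave 4760 to 5686 members and 1871 to 2098 host genes. The other settings kept both counts within 1.5 times.

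Without 1 library the smallest sign-flip p is 0.0625, so none of the strength comparisons can pass there. The difference from gene-end regions was then -25.1 to -22.7 points, from regions 1 to 20 kb from an end -4.95 to -4.71, and between members with and without a start 10.8 to 11.8. By fold enrichment the latter comparisons gave -0.732 (exact permutation p = 0.1875) and 1.83 (exact permutation p = 0.281). The difference from regions between genes turned from 0.146 to -0.771 by fold enrichment, -0.0692 at 400 to 1000 bp and -0.0502 without DTx replicate 2, and was -0.0502 to 0.367 over the libraries left out. The cause was not tested. Against all other regions of the same width called in all 6 lists members lay at -10.8 points.

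The rank fit called 0 members under every one of 12 alternatives, and 1 region outside them with normal scores of the ranks. The members' median rank differed by 0.495 to 1.70 points without each library in turn. In a check of pairing, a measure other than the rank correlations of members above, same-numbered libraries had correlations of 0.187, 0.0583 and -0.0751. Differently numbered pairs ranged from -0.350 to 0.357. With so few pairs and so wide a range, the check cannot decide whether the labels' numbers pair the samples. With the replicate block 0 members were called, and the block gave 1.25 points (0.507 to 2.42 over 3 pairs; exact permutation p = 0.25, the smallest possible). The depth of the libraries is unknown, members of a gene are not independent, and percentiles are relative to lists of unequal length.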
